A study of Mus musculus with 12 samples.

Results

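The transcripts described here are 19189 long non-coding RNAs of moderate and low signal in mouse spleen. They are the array probes named by a NONCODE transcript number (NONMMUT followed by digits), chosen by 2 measured values: a mean level under 2 over the 12 arrays, and a signal well above background throughout 1 or more of the 4 groups. A level is the log2 of a probe's processed signal minus the 75th percentile of its array, so 0 is that percentile. The members were 66.7% of the 28773 NONCODE probes on the array, which holds 97836 non-control probes in all. A further 1268 NONCODE probes were brighter, 8240 were not well above background throughout any group, and 76 lacked a usable spot on some array. Since level and detection flags chose the members, both are given as description only.

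Long non-coding RNAs are transcripts that are not translated into long proteins. Many are spliced and polyadenylated like messenger RNAs, yet are on average less abundant and more restricted to particular tissues and cell types. Some act on chromatin or on the transcription of neighbouring genes, some bind proteins or other RNAs, and most have no known function. NONCODE is a public catalogue that numbers such transcripts. The spleen filters blood and holds the B cells, T cells and phagocytes that respond to antigens carried in it, and long non-coding RNAs are known among the genes that change as lymphocytes are activated.

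RNA was taken from whole spleens of female BALB/c mice, 6 weeks old, injected into the peritoneum on days 1, 3 and 5. The OVA groups received 2 mg/kg of OVA (ovalbumin, an egg-white protein used as a model allergen) and the control groups received normal saline. Spleens were taken on day 14 or day 28, with 2 control and 4 OVA arrays for each day and 1 array per spleen. In whole tissue, fewer cells of a type and less RNA per cell cannot be told apart. The files name no probe for the marker genes of spleen cell types, so the labelled tissue was not checked against its markers. The files do not pair the NONMMUT probe names with gene names, so members are given by probe name, and their genomic positions were not analysed here.

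The 12 arrays lay on 3 slides: 1 slide held the 4 controls, the second the OVA arrays of day 14 and the third those of day 28. Differences between OVA and saline arrays, and between the OVA days, therefore cannot be told apart from differences between slides, and p-values measure only the spread between spleens and arrays within slides. The 75th percentile signal was 267.4 to 370.8 on the 8 arrays of the first and second slides and 484.2 to 549.4 on the OVA arrays of day 28. On control day 14 replicate 1, a streak of 2598 bright spots touched 455 members. On OVA day 14 replicate 2, 66.3% of members were well above background, against 91.7% to 98.2% on each other array. Without the streak, the numbers of members called in each comparison moved by less than 1.5 times.

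The members covered a wide span of signal, most of it below the array's 75th percentile. Mean levels ran from -5.54 to 2, with a median of -1.97 and quartiles of -3.14 and -0.62. Between -4 and -2 lay 7883 members, between -2 and 0 lay 6628, between 0 and 2 lay 3136, and 1542 were under -4. At the upper limit, NONMMUT025493 and NONMMUT043061 had mean levels of 1.9997 and 1.9991, whereas NONMMUT074296 and NONMMUT052143, both at 2.002, fell just outside. The dimmest members were NONMMUT043030 at -5.54 and NONMMUT074021 at -5.47, each well above background on 2 of the 12 arrays. The median member stood between -2.01 and -1.89 on every array, while the 5th percentile of members ran from -4.73 on OVA day 14 replicate 2 to -4.08 on OVA day 28 replicate 2.

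**Figure D1:**
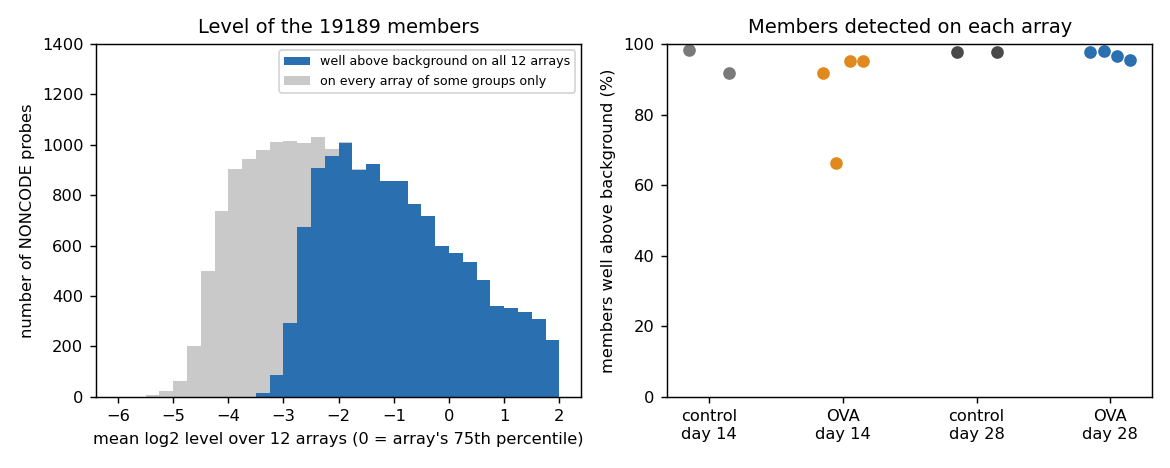
Left, number of members by mean log2 level over the 12 arrays (0 is the array's 75th percentile), split by whether the probe was well above background on all 12 arrays. Right, the percentage of members well above background on each array, 1 point per array. Nearly all members over -2 were detected on all 12 arrays, none under -4 was, and OVA day 14 replicate 2 is the low point at 66.3%.

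Detection throughout the series was reached by 12715 members, 66.3% of them. It depended on level: 100% of members between 0 and 2, 99.9% of those between -2 and 0, 37.5% of those between -4 and -2 and 0% of those under -4 were well above background on all 12 arrays. The other 6474 passed through some groups only. Of these, 4045 were detected throughout every group except OVA day 14, and 4042 of the 4045 were missed on OVA day 14 replicate 2. That array alone accounted for 3656 of them, so most of this pattern came from 1 array. Only 1 member was detected throughout OVA day 14 and no other group, against 363 for OVA day 28, 543 for control day 28 and 235 for control day 14. Throughout means 2 arrays for a control group and 4 for an OVA group, so control and OVA counts are not like for like. A stricter reading left few members with a detection difference. There were 64 members well above background on all 4 OVA arrays of day 28 and on none of the 4 control arrays, and 11 with the reverse pattern. Because detection chose the members, these counts carry no test, and no fold is given for members that a whole group of arrays did not measure.

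The spread between arrays of a group also followed the level. The median SD between arrays within groups was 0.38 on the log2 scale for members under -4, 0.23 between -4 and -2, 0.16 between -2 and 0, and 0.14 between 0 and 2. The abundant NONCODE probes also had 0.14. Most members, 13596, are printed as 2 spots on each array, which gives a measure of technical error. The SD expected of a 2-spot mean from the difference between spots was 0.26, 0.15, 0.08 and 0.05 in the same bands. The median SD between arrays of these 2-spot members was larger in each, at 0.35, 0.22, 0.15 and 0.13. For the other 5593 members a single spot carries the whole value. The 2 spots of a member lay over 1 log2 unit apart on at least 1 array for 1868 members, and over 3 units apart for 186.

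At day 28, 2567 members differed between OVA and control spleens at an adjusted p under 0.05, of which 1357 were higher and 1210 lower after OVA. That is 13.4% of the members, against 14.1% of all 72645 probes tested, a rate near that of the array as a whole. By direction, 7.07% of members were higher and 6.31% lower, beside 7.49% and 6.64% of all tested probes. The median log2 difference was -0.03 for the members and -0.03 for all tested probes. Called changes of at least 2-fold were mostly increases, with 214 members higher and 30 lower, and so they were over all tested probes, with 773 higher and 90 lower of 72645. Among members detected on all 12 arrays these numbers were 86 and 2, and 2016 (15.9%) were called, 984 higher and 1032 lower. All 53794 tested probes so detected gave 376 and 11 of at least 2-fold and 16.1% called, 4276 higher and 4363 lower. Members detected in some groups only could pass the detection rule through the group in which they were high, and the numbers for detection on all 12 arrays leave those members out.

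NONMMUT029622 was the member that rose most at day 28 among those detected on all arrays. Its levels were 1.49, 1.48, 1.65 and 1.63 on the 4 OVA arrays of day 28, and -0.80 and -0.71 on the 2 controls of that day. At day 14 it stood at -1.14, -1.05, -0.87 and -0.86 after OVA and at -0.80 and -1.24 in controls. The OVA arrays of day 28 were thus set apart from the other 8, which overlapped. The day 28 difference was 2.32 ± 0.13 (SE, log2), or 4.99-fold, with an adjusted p of 4.85e-05. Both its spots gave this pattern: the first read 1.48 to 1.69 and the second 1.49 to 1.61 on the OVA arrays of day 28, and no spot read above -0.36 elsewhere.

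NONMMUT042645 showed the same arrangement at a lower level. It read 0.78, 0.84, 0.50 and 0.43 on the OVA arrays of day 28 and -1.78 and -1.41 on their controls. At day 14 it read -1.94, -1.96, -1.75 and -1.77 after OVA and -2.03 and -2.16 in controls. No array outside OVA day 28 came within 1 log2 unit of the lowest array of that group. The difference at day 28 was 2.23 ± 0.15, or 4.71-fold (adjusted p = 6.34e-05).

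Decreases at day 28 were smaller. NONMMUT047458 read -0.43, -0.18, -0.12 and -0.39 on the OVA arrays and 0.63 and 0.86 on the controls of day 28. It read 0.72, 0.76, 0.77 and 0.42 after OVA and 0.50 and 0.88 in controls at day 14, so it was below 0 on the OVA arrays of day 28 and above 0 on the other 8. It fell by 1.02 on the log2 scale at day 28 (SE 0.15, 2.03-fold, adjusted p = 0.00284). NONMMUT045652, a member with 1 spot, had the largest decrease by the rule used for naming, but its controls differed widely. It read -1.68, -1.64, -1.79 and -1.30 after OVA at day 28 against -1.01 and 0.18 in the controls. At day 14 the values were -0.48, -0.91, -0.97 and -1.18 after OVA and -0.99 and -0.70 in controls. The day 28 difference was -1.19 ± 0.29 (2.28-fold lower, adjusted p = 0.0212). Without control day 28 replicate 2, the array at 0.18, the difference was -0.59 with an adjusted p of 0.199, in a range of 0.00339 to 0.199 over the alternatives tried.

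**Figure D2:**
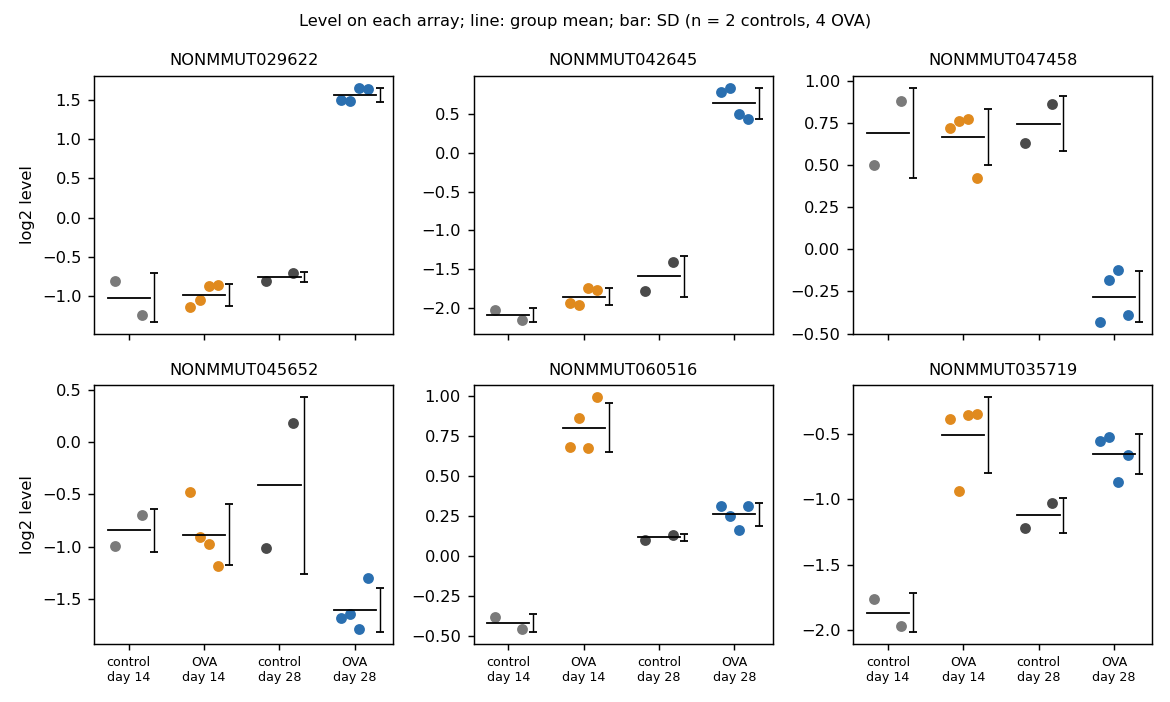
Log2 level (0 is the array's 75th percentile) of 6 members on each of the 12 arrays, 1 point per array, with the group mean as a line and the SD as a bar (2 control and 4 OVA arrays per day). NONMMUT029622 and NONMMUT042645 were high, and NONMMUT047458 low, on the OVA arrays of day 28 alone, NONMMUT045652 had 1 control at 0.18, and NONMMUT060516 and NONMMUT035719 had their highest arrays in OVA day 14.

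The share of members called at day 28 was higher above a level of -2 than below it. It was 9.66% under -4, 8.42% between -4 and -2, 16% between -2 and 0 and 22.1% between 0 and 2. All tested probes of the same bands gave 9.43%, 8.32%, 15.9% and 19.9%, so the members followed the level of the probe and stood close to other probes of like signal. The abundant NONCODE probes, which are brighter still, gave 20%. Of the called members, 57%, 61.6%, 52.2% and 44.7% were higher in the 4 bands from the dimmest up. All called probes of these bands gave 62.2%, 65.6%, 57% and 44.8%. Of members under -4, 0% were detected on all 12 arrays, and of those between -4 and -2, 37.5%. The others could pass the detection rule through the group in which they were high, so these shares are description only. Among called members detected on all 12 arrays 48.8% were higher, beside 49.5% of all called probes so detected. Among called members detected in some groups only it was 67.7%. Members with 2 spots were called in 13.9% of cases and members with 1 spot in 12.1%. For 13508 members with both spots usable on all arrays, the day 28 differences computed from each spot alone had a correlation across members of 0.84 and the same sign in 83.6%. The 2 spots share the labelled RNA and the array, so their agreement measures printing and reading error and not the spread between mice.

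**Figure D3:**
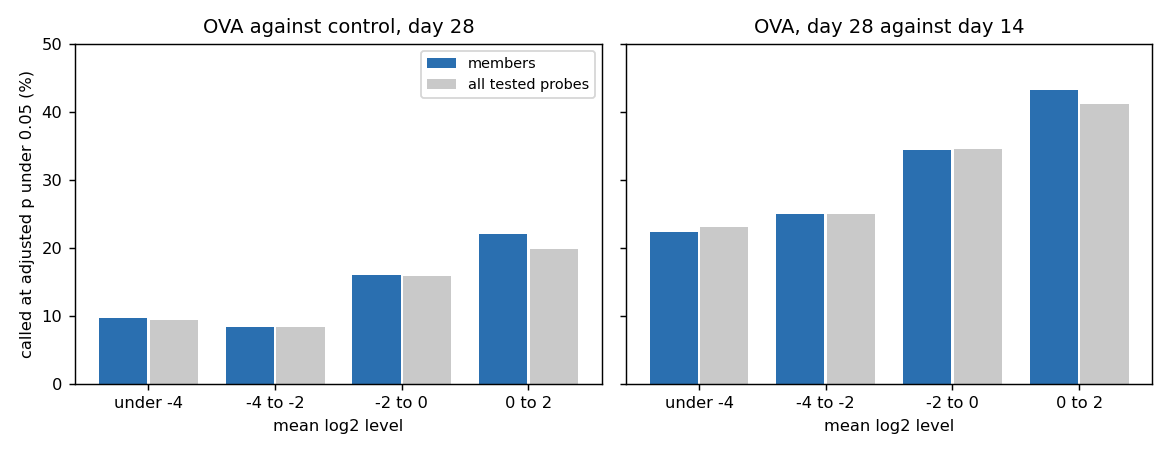
Percentage of probes called at an adjusted p under 0.05 in 4 bands of mean log2 level, for members (blue) and all tested probes (grey), in OVA against control at day 28 (left) and OVA at day 28 against day 14 (right). At day 28 the share was 9.66%, 8.42%, 16% and 22.1% of members from the dimmest to the brightest band, beside 9.43%, 8.32%, 15.9% and 19.9% of all tested probes.

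The OVA arrays of day 28 also stood apart when no test was used. All 4 read above all of the other 8 arrays for 1915 members, or 9.98%, against 11.1% of all tested probes, and below all 8 for 1596, or 8.32%, against 9.81%. The compared OVA and control arrays of day 28 did not overlap for 40.1% of members, against 42.2% of all tested probes. Of the members called, 1143 higher and 808 lower ones had the OVA arrays of day 28 apart from the other 8. These are 5.96% and 4.21% of all members. The like shares of all tested probes were not counted, so these counts carry no comparison with the array as a whole.

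The count at day 28 changed with single arrays. It fell most without either control of that day, for members and for all tested probes alike. Without control replicate 2 a larger share of the called members was higher. Those fits leave 1 control in the group, so their counts are not given. The count was 1451, 1499 and 1556 without OVA day 28 replicates 1, 2 and 3. Over all tested probes the share called was 8.17%, 8.13% and 8.48% without OVA day 28 replicates 1, 2 and 3, against 14.1% with all arrays. With normexp background correction of the median spot signals 7830 members were called and 16.6% of them were higher, against 52.9% here. This alternative called 37.8% of all tested probes. The balance of increases and decreases thus changed under it, and which of its steps did so was not tested.

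At day 14, 15 members were higher after OVA and none was lower. That is 0.0782% of the members, against 0.0606% of all tested probes, of which 0.0551% were higher and 0.00551% lower. At an unadjusted p under 0.05 there were 3034, or 15.8% of members, against 14.2% of all tested probes. All 4 OVA arrays of day 14 read above the other 8 arrays for 2.45% of members and below them for 0.917%, beside 2.35% and 1.09% of all tested probes, and OVA and control arrays of that day did not overlap for 22.9% of members against 22.4% of all tested probes. Of the 15, 11 were detected on all 12 arrays. Their log2 differences ran from 0.66 to 1.94 with a median of 1.08, with adjusted p from 0.00637 to 0.0488. The same 15 members had differences from -0.26 to 2.29 at day 28 with a median of 0.14, and 1 of them passed the threshold there as well.

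NONMMUT035719 and NONMMUT060516 were the members with the largest increase at day 14 by the rule used for naming. NONMMUT060516, with 1 spot, read 0.68, 0.86, 0.67 and 0.99 after OVA against -0.38 and -0.46 in controls, a difference of 1.22 ± 0.11 (2.33-fold, adjusted p = 0.00637). By day 28 it read 0.31, 0.25, 0.16 and 0.31 after OVA and 0.10 and 0.13 in controls. Its OVA arrays of day 14 were the highest of the 12, and its controls were lower at day 14 than at day 28. NONMMUT035719 read -0.39, -0.94, -0.36 and -0.35 after OVA and -1.76 and -1.97 in controls at day 14, a difference of 1.36 ± 0.17 (2.56-fold, adjusted p = 0.0289). At day 28 it read -0.56, -0.53, -0.87 and -0.66 after OVA and -1.22 and -1.03 in controls, a difference of 0.47 with an adjusted p of 0.0923. OVA day 14 replicate 2 lay above all 4 control arrays and below the OVA arrays of day 28.

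No decrease passed at day 14. The lowest moderated t belonged to NONMMUT071769, which read -2.40, -2.19, -2.30 and -2.36 after OVA and -1.36 and -1.31 in controls, a difference of -0.98 with an adjusted p of 0.0685. Its 2 spots lay up to 2.38 log2 units apart on an array, and 1 of them lay in the streak area. Without that area the difference was -0.43 with an adjusted p of 0.567, in a range of 0.0236 to 0.586 over the alternatives tried. The day 14 differences computed from each spot alone correlated at 0.45 across the 13508 members, against 0.84 at day 28, and had the same sign in 74.1%.

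The day 14 count was 0 when arrays were weighted, when the fit held the day 14 groups alone, or with a replicate block, and it was sensitive to single arrays. It was 588, of which 120 were higher and 468 lower, without control day 14 replicate 2, 31 without OVA day 14 replicate 2 and 16 without control day 14 replicate 1. It lay between 2 and 7 without any 1 of control day 28 replicates 1 and 2, OVA day 14 replicates 1, 3 and 4 and OVA day 28 replicates 1 to 4. The 8 spike-in controls, RNAs added in equal amount to every sample, read 0.11 to 0.38 higher on the OVA arrays of day 14 than on their controls. Centring the arrays on them gave 142 called members, 13 higher and 129 lower, and called 0.608% of all tested probes. The direction at day 14 thus turned under spike-in scaling. Taking the percentile over detected probes gave 4 higher and 0 lower, quantile normalization 39 and 5, and normexp 43 and 3. NONMMUT035719 lost its call in 17 of 26 alternatives and NONMMUT060516 in 4 of 26, and both stayed higher in all 26.

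The OVA effect differed between the days for 513 members, tested as the day 28 difference minus the day 14 difference. This difference is signed: it was above 0, a more positive OVA difference at day 28 than at day 14, for 276 members and below 0 for 237. That is 2.67% of members against 3.02% of all tested probes. By direction, 1.44% of members were above 0 and 1.24% below, beside 1.74% and 1.28% of all tested probes. Among members detected on all arrays, 170 (1.34%) were above 0 and 215 (1.69%) below, beside 1.64% and 1.62% of all tested probes so detected. NONMMUT029622 and NONMMUT042645 led the first direction, with 2.28 (adjusted p = 0.00168) and 1.99 (adjusted p = 0.00318) on the log2 scale.

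In the other direction, NONMMUT015690 had an interaction of -1.24 (adjusted p = 0.00633). It read -1.85, -2.11, -1.79 and -1.78 after OVA at day 14 against -3.04 and -2.96 in controls, and -2.58, -2.71, -2.55 and -2.65 after OVA at day 28 against -2.47 and -2.54. It was thus higher after OVA at day 14, by 1.12 (adjusted p = 0.0124), and differed by -0.12 at day 28 (adjusted p = 0.506). NONMMUT069032, with 1 spot, had an interaction of -1.38 (adjusted p = 0.0454). It read -2.62, -2.67, -2.33 and -2.38 after OVA and -3.09 and -2.85 in controls at day 14, then -2.86, -2.88, -3.51 and -3.69 after OVA and -2.40 and -2.25 in controls at day 28. The OVA arrays lay above the controls at day 14 and below them at day 28, but its call was lost in 16 of 25 alternatives.

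The interaction uses all 4 group means, and its count moved with single arrays of each group. It was 287, 183 and 243 without OVA day 14 replicates 2, 3 and 4, and 143, 135 and 116 without OVA day 28 replicates 1, 2 and 3. Of all tested probes, 1.7%, 1.12% and 1.45%, then 1.02%, 0.826% and 0.767% were called, against 3.02% with all arrays. Fits without a control leave 1 control in a group, so their counts are not given. With array position on the slide as a term the interaction count was 0. The controls of the 2 days lay at different positions, so that fit adjusts their day difference by position effects taken from the OVA arrays. It cannot show whether position or the loss of precision gave the 0. The balance of direction turned with the processing. Of the members called, 53.8% were above 0 here, 97.3% of 673 when arrays were centred on spike-ins, 78% of 496 when the percentile was taken over detected probes and 8.87% of 6370 under normexp.

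Between the OVA groups, 5950 members differed from day 14 to day 28. Of these 2851 were higher and 3099 lower at day 28, 31% of members against 33.3% of all tested probes. By direction, 14.9% of members were higher and 16.1% lower, beside 15.8% and 17.5% of all tested probes. The 2 OVA groups did not overlap for 32.2% of members, against 36.4% of all tested probes. Among members detected on all 12 arrays, 1806 (14.2%) were higher and 2619 (20.6%) lower, beside 15.5% and 21.1% of all tested probes so detected. Called changes of at least 2-fold were 482 increases and 35 decreases, beside 1722 and 156 over all tested probes. Among members detected on all arrays they were 169 and 7, beside 752 and 64 of the 53794 probes. This comparison uses the OVA arrays of day 28 again, so it is not independent of the one with controls, and it lies across 2 slides. It sets 4 arrays against 4, whereas OVA against control sets 4 against 2 and the controls 2 against 2. Its precision is therefore higher, and the counts do not rank the comparisons by size of change. The share called rose with level here too, from 22.4% under -4 to 43.2% between 0 and 2, beside 23.1% and 41.2% of all tested probes.

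NONMMUT029622 and NONMMUT042645 had the largest increases between the OVA groups, of 2.54 (5.83-fold, adjusted p = 1.79e-06) and 2.49 (5.63-fold, adjusted p = 2.07e-06). The largest decreases by the rule for naming belonged to members that varied among mice. NONMMUT073821, with 1 spot, read -0.86, -1.55, -0.54 and -1.24 after OVA at day 14 and -2.07, -1.96, -2.72 and -3.80 at day 28, a difference of -1.59 ± 0.35 (3.01-fold lower, adjusted p = 0.00591). Its controls read -0.95 and -1.22 at day 14 and -1.48 and -1.60 at day 28. NONMMUT035256 had a difference of -2.38 ± 0.66 (5.22-fold lower, adjusted p = 0.0167), described with the variable members below. The count was between 4529 and 6400 without any single array, while with spike-in scaling 71.4% of 4881 called members were higher and with normexp 13.5% of 13181, against 47.9% here.

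Between the control groups, which shared 1 slide, no member passed at day 28 against day 14 in limma. The day 14 controls lay at positions 1 and 2 of that slide and the day 28 controls at positions 3 and 4. Among the controls, day and position therefore cannot be told apart. The background was 0.00138%, which is 1 of the 72645 probes. An unadjusted p under 0.05 was found for 2138 members, or 11.1%, against 10.6% of all tested probes. The arrays of the 2 control groups did not overlap for 38.5% of members, against 37.1% of all tested probes. The largest moderated t belonged to NONMMUT043645, with 1 spot, which read -1.61 and -1.53 at day 14 and -0.97 and -0.82 at day 28 (difference 0.68, adjusted p = 0.183). In the other direction NONMMUT071769 read -1.36 and -1.31 at day 14 and -2.27 and -2.40 at day 28 (difference -1.0, adjusted p = 0.239). Without the streak area that difference was -0.50. The count of 0 changed in 3 of 26 alternatives, those without control day 14 replicate 1 or 2 or control day 28 replicate 2. Each of these fits leaves 1 control in a group, so their counts are not given.

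A few members varied widely between mice of the same group. Of the members named here and below, NONMMUT020741, NONMMUT050164, NONMMUT044842, NONMMUT041526 and NONMMUT056104 were picked after their values were seen. NONMMUT035256 read -0.78, -0.99, -3.11 and 0.75 on the OVA arrays of day 14 and -3.21 and -1.21 on the controls of that day. It read -3.33, -3.13, -3.52 and -3.68 after OVA and -3.12 and -3.36 in controls at day 28. It was therefore high on 4 arrays, 3 OVA and 1 control, all of day 14, and low on the other 8. Its 2 spots agreed within 0.73 log2 units on every array. NONMMUT020741 followed the same arrays, with -0.63, -1.44, -4.13 and 0.98 after OVA and -3.63 and -0.63 in controls at day 14, and at most -3.29 on any array of day 28. The correlation of NONMMUT020741 with NONMMUT035256 over the 12 arrays was 0.97, and that of NONMMUT050164, the next most alike, was 0.94. NONMMUT050164 has 1 spot and read -1.82, -2.88, -3.97 and -0.91 after OVA and -4.32 and -2.18 in controls at day 14.

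NONMMUT044842 has 1 spot and divided the arrays differently. It read 1.62, 1.1, -2.92 and 1.00 after OVA and -2.97 and 0.88 in controls at day 14, and -2.12, 1.40, -2.55 and -2.98 after OVA and -3.10 and -3.04 in controls at day 28. It was near or above 0.88 on 5 arrays and at -2.12 or below on the other 7, with no array between. In all, 31 members had an SD within groups above 1, of which 25 have 1 spot. Of those 25, 18 were highest on control day 14 replicate 1, the array with the streak, and 14 of the 31 had a spot in the streak. Of the 6 with 2 spots, 3 had spots over 3 log2 units apart on some array.

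Single-spot readings could also stand far out on 1 array. NONMMUT041526 read 7.04 in 1 spot and -4.11 in the other on OVA day 14 replicate 2, and between -4.40 and -3.09 in both spots on the other 11 arrays. NONMMUT056104, with 1 spot, read 6.62 on that array and at most -3.54 on any other. The member with the widest range among those detected on all arrays, NONMMUT051548, has 1 spot and read 4.46 on control day 14 replicate 2 and between -2.71 and -1.87 on the other 11. In NONMMUT041526 the second spot shows that the reading was of 1 spot, and for the other two no second spot exists.

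**Figure D4:**
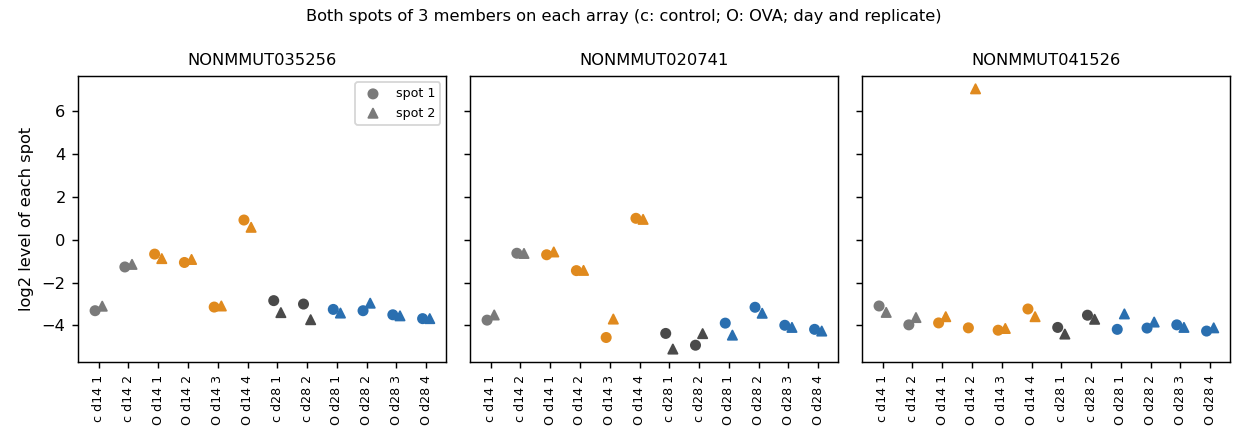
Log2 level of each of the 2 spots (circle and triangle) of 3 members on the 12 arrays, ordered by group (c, control; O, OVA; then day and replicate). In NONMMUT035256 and NONMMUT020741 both spots were high on the same 4 arrays of day 14, whereas in NONMMUT041526 only 1 spot, at 7.04 on OVA day 14 replicate 2, was high.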

How the data were processed

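Single-colour Agilent arrays of 12 spleens were read from the deposited scanner files. The authors' files give a spot intensity, the processed signal, which per the file headers was background-corrected by version 11.5.1.1 of Agilent Feature Extraction. The submitters' processing notes give 9.1. The well-above-background and outlier flags (score columns of 0 or 1) come from the same program per the file headers. Here, log2 of the intensity was taken, the array's 75th percentile over non-control spots was subtracted, and each probe's unflagged spots were averaged. A probe counted as well above background on an array where all its unflagged spots were. No non-control spot was saturated. The deposited table of processed values holds no NONCODE probe and was not used.

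All 12 arrays entered 1 limma model (limma 3.58.1, R 4.3.3) fitting a mean for each of 4 groups, which left 8 residual degrees of freedom, over 72645 tested probes. Moderated t statistics (eBayes) were adjusted by Benjamini-Hochberg with a threshold of 0.05, and the script was tested on simulated data. Alternatives covered scaling, background correction, filters, spots, blocks and left-out arrays. Named members are those detected on all 12 arrays with the 2 highest and 2 lowest called differences per comparison whose compared arrays did not overlap (not asked of the interaction), or the most extreme moderated t where none passed, and the member of widest range. The members, lists and rules were chosen with earlier results of these data known. The number of arrays, above all 2 controls per day, limits the precision.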

Additional observations from a re-analysis of the deposited data

Results flagged for a closer look

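The OVA effect differed between day 28 and day 14 by limma's interaction test for 6 of the members named above. The day 28 difference minus the day 14 difference was 2.28 on the log2 scale for NONMMUT029622 and 1.99 for NONMMUT042645. It was below 0 for NONMMUT069032 (-1.38), NONMMUT015690 (-1.24), NONMMUT060516 (-1.08) and NONMMUT047458 (-1.0). Of the 6, NONMMUT069032 lost its call in 16 of 25 alternatives and NONMMUT029622, NONMMUT042645 and NONMMUT015690 in 1 of 25, that with array position as a term. The interaction calls of NONMMUT060516 and NONMMUT047458 were not followed over the alternatives.

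In 2 of 26 groups of 4 arrays tested, 1 array lay far from the other 3. These were NONMMUT035719 at -0.94 on OVA day 14 replicate 2, the array with the fewest members detected, and NONMMUT047458 at 0.42 on OVA day 14 replicate 4. Chance gives such a gap in about 1 of 20 groups.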

How the results depend on the processing

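At day 14 the 15 called members became 142 with spike-in scaling (13 higher), 4 with the percentile taken over detected probes, 44 with quantile normalization and 46 with normexp. They became 1 with no filter on dim probes, 66 with only probes detected on all arrays, 0 with array weights, 61 with trend and robust eBayes, 0 with only the groups compared, 1 with array position as a term and 5 with the last spot only. Leaving out 1 array gave 2 to 588. At day 28 the 2567 became 1675 with spike-in scaling, 7830 with normexp, 1378 with no filter and 1099 with array position, and 543 to 3049 without 1 array. For the interaction, 513 became 6370 with normexp, 77 with no filter, 870 with only probes detected on all arrays, 105 with array weights, 920 with trend and robust eBayes, 0 with array position, 261 with the first spot only and 165 with the last, and 93 to 1484 without 1 array. Between the OVA groups, 5950 became 13181 with normexp, and 4529 to 6400 without 1 array. Between the control groups, the count of 0 held in every alternative except 3 left-out arrays, with a range of 0 to 465. Where a left-out array left 1 control, that control was assumed to vary like the other groups. The share called of all tested probes changed as well. With normexp it was 37.8% at day 28, 28.7% for the interaction and 64.6% between the OVA groups, against 14.1%, 3.02% and 33.3%. At day 14 it was 0.608% with spike-in scaling, 0.194% with quantile normalization and 0.231% with normexp, against 0.0606%. It was 0.429% there with only probes detected on all arrays and 0.285% with trend and robust eBayes. At day 28 it was 8.94% with spike-in scaling, 6.12% with no filter and 5.84% with array position. The cause of these changes was not tested. No named value changed sign under any alternative, and the members' median log2 difference at day 14 was -0.21 with spike-in scaling, against 0.03. Normexp was planned on mean spot signals and was run on the median spot signals in the scanner files, which hold no mean signal column.

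Replicate numbers did not pair the arrays: deviations of same-numbered arrays correlated at -0.16 to 0.24. With the replicate block the counts were 0 at day 14, 1711 at day 28, 107 for the interaction, 5706 between the OVA groups and 0 between the control groups.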

Other observations

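Over the 19189 members, the first principal component of the levels held 36.4% of the variance. The OVA arrays of day 28 lay at 30.9 to 42.7 on it and the other 8 at -28.4 to -6.3. The second component held 17.3%, with control day 14 replicate 1 at 44.7 and OVA day 14 replicate 2 at -29.1 as its ends.

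Members with consecutive NONCODE numbers were compared with each other. Over 5709 such pairs the mean levels correlated at 0.14 and the day 28 differences at 0.10, and 14 pairs had a correlation above 0.95 over the 12 arrays. Over 4940 pairs of numbers 100 apart these values were 0.03, 0 and 1 pair. What the numbering stands for is not stated in the files.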
